A study of Homo sapiens with 6 samples.

Results

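Expression of 10 genes that describe the epithelial or mesenchymal state of a carcinoma cell was examined in NCI-N87 cells, an established epithelial gastric cancer cell line. They were the 10 protein-coding genes named VIM, ZEB1, ZEB2, SNAI1, SNAI2, TWIST1, ESRP1, ESRP2, EPCAM and CD24, out of 58735 genes in the deposited table. Cells carried the empty lentiviral vector pSIH-H1-puro (shCtrl, labelled shNC) or the vector with 1 of the study's SCAMP1 shRNAs (shS1#1, labelled shScamp1), so an effect of this shRNA on other transcripts cannot be told apart from that of SCAMP1 loss. Both groups were exposed to lentivirus with polybrene and kept as stable populations under puromycin (2 μg/ml), and RNA was taken before confluence. There were 3 libraries a group, labelled biological replicates. The study's methods exempt the RNA-seq from the independent repeats made of most other assays, and the sources used here do not say whether the libraries came from separate infections. The p-values therefore measure only the spread between these samples, which may be technical.

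Epithelial-mesenchymal transition (EMT) is the change by which epithelial cells loosen their junctions, lose apical polarity and gain motility. Its core transcription factors, of the SNAI, ZEB and TWIST families, repress epithelial genes such as CDH1 (E-cadherin), and ZEB factors and the miR-200 microRNAs repress each other. ESRP1 and ESRP2 are RNA-binding proteins that keep the epithelial splice forms of genes such as FGFR2, CD44 and CTNND1, and ZEB1 and SNAI1 are known to repress ESRP1. EPCAM is a homophilic adhesion molecule of simple epithelia, CD24 a small, heavily glycosylated surface protein that ligates P-selectin and Siglec-10, and VIM (vimentin) the intermediate filament of mesenchymal cells.

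Levels are FPKM, fragments scaled to gene length and to library size, here by a size factor per library in place of its read total. Reads recovered from these values amounted to between 14311769 and 15988700 per library. shS1#1 replicate 2 stood apart. Its recovered reads differed from those of the other shS1#1 libraries by 30.3 and 38.6 times sampling noise (chi-square over degrees of freedom), against 1.89 to 2.89 for the other pairs of replicates, and its mitochondrial share was 9.21% against 6.09% to 6.78%. Its part in the results below was not tested beyond the fits without it. SCAMP1, the targeted gene, fell by 86.0%, from 12.1 ± 0.562 to 1.69 ± 0.311 FPKM (SD, n = 3 each). The line had the markers of simple epithelium in all libraries, with at least 1491 FPKM of KRT8, 867 of KRT18, 1655 of KRT19 and 54.5 of CDH1. The summed level of 10 fibroblast markers was 0.554 to 0.718 FPKM in shCtrl and 0.644 to 0.863 FPKM in shS1#1 libraries, with COL1A2, PDGFRA, DCN and LUM listed at 0. The 7 endothelial markers summed to 0.324 to 0.561 and 0.586 to 0.832 FPKM, with EMCN at 0. The 9 leukocyte markers summed to 1.52 to 1.81 and 2.36 to 4.74 FPKM, with the B-cell receptor subunit CD79A as the largest, at 1.07 ± 0.0968 and 3.24 ± 1.21 FPKM (SD, n = 3 each). Of these markers 2, COL1A1 and CD79A, were high enough to be tested by limma. CD79A was called, and kept its call in 1 of 6 fits that left out a library. VWF, the highest endothelial marker, was not tested and went from 0.172 ± 0.0461 to 0.444 ± 0.122 FPKM (SD, n = 3 each), without overlap. The part of these markers in the results was not tested.

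Of the 10 genes, 6 had a mean of at least 0.5 FPKM and were tested, and 4 (ZEB1, ZEB2, SNAI2 and VIM) were below it. In shS1#1 cells, CD24 rose 2.41-fold and ESRP1 1.35-fold in mean FPKM, whereas TWIST1 fell by 44.4% and SNAI1 fell by 38.9%. ESRP2 and EPCAM did not pass the test. Thus 2 of the 6 were called higher and 2 called lower, where called means an adjusted p under 0.05 by limma with Benjamini-Hochberg adjustment over 15556 genes. Without any 1 of the shCtrl libraries 1 of the 6, CD24, was called, and without shS1#1 replicate 3 there were 2. Among all genes tested, 8.82% were called higher and 5.17% lower. The groups did not overlap for 5 of the 6 genes tested, against 41.4% of all genes tested. The median log2 fold change was 0.09 for these 6 and -0.02 for all genes tested.

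**Figure D1:**
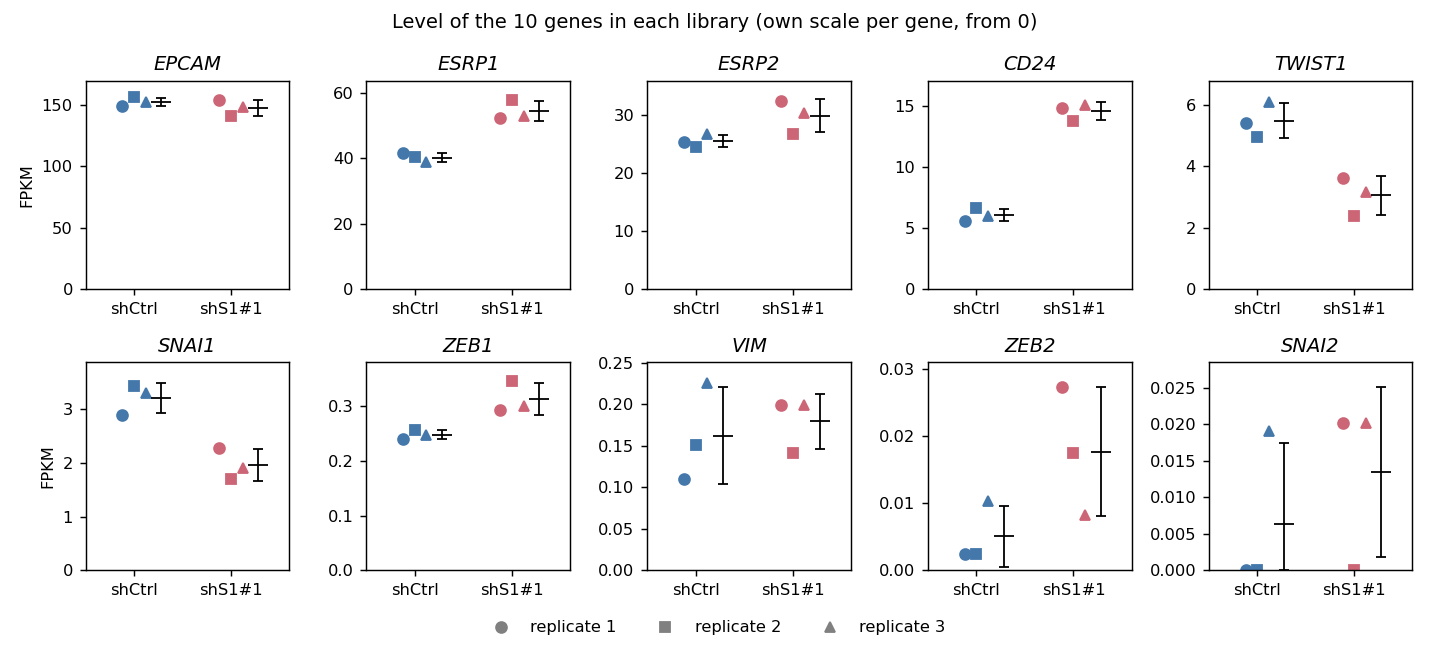
FPKM of the 10 genes (vertical axes, each from 0 on its own scale) in the 3 shCtrl and 3 shS1#1 libraries. Symbols are libraries and bars the mean ± SD, cut at 0. CD24 and ESRP1 lay higher and TWIST1 and SNAI1 lower in all 3 shS1#1 libraries, while EPCAM overlapped.

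CD24 showed the largest change of the 6 genes. The shCtrl libraries held 5.60, 6.63 and 6.0 FPKM of it and the shS1#1 libraries 14.9, 13.8 and 15.1 FPKM, on 275 to 686 reads each. Every shS1#1 library was above every shCtrl library by more than the range within either group. By limma the log2 fold change came to 1.25 with a standard error of 0.09 (adjusted p = 0.000685), which was higher than that of 97.3% of the genes tested. It was the only one of the 6 to pass the study's fold change threshold of 1 as well, as did 2.42% of all genes in the upward direction. The call was kept in all 15 alternative fits that differed from this one, with log2 fold changes from 1.14 to 1.32. The processed copies CD24P1 and CD24P2, the only copies of CD24 looked up, had 0 reads and at most 1 read per library. How reads shared between copies were treated is not given in the sources used here.

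CD24 (ENSG00000272398) lies on the reverse strand of chromosome 6 from 106969831 to 106975627, on GRCh38. As its change was the largest, the 250 bases before its first annotated start are shown, from RefSeq on GRCh38.p14 (chr6:106975628-106975877, reverse strand, 5′ to 3′), with CG dinucleotides in capitals.

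CD24 promoter: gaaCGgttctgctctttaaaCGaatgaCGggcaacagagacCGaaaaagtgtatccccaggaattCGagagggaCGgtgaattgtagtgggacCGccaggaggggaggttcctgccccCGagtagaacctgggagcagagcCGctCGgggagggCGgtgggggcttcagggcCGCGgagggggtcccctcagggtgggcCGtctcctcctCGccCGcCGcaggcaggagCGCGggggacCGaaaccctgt

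This window lies wholly upstream of the gene model and holds 20 CG dinucleotides, against a median of 11 in windows of the same length before all 35116 RefSeq starts. The E-box that SNAI and ZEB factors bind, CACCTG or its reverse complement CAGGTG, was searched on both strands, together with the general E-box CANNTG, which contains it. Neither was found in this window. RefSeq lists 3 starts for CD24. The window before the second start also held neither, and the window before the third (chr6:106974040-106974289, reverse strand) held CAGGTG at 1 place, also its only general E-box. Across all starts, CACCTG or CAGGTG was in 17.5% of all windows of this length and CANNTG in 61.8%. A match or its absence describes the letters of these windows and nothing of the binding of a factor.

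EPCAM, the other surface molecule, was the most abundant of the 10 genes, at rank 169 among protein-coding genes. Its levels were 149.7, 156 and 152 FPKM in shCtrl and 153.9, 141 and 148.6 FPKM in shS1#1 libraries. These ranges overlapped. The log2 fold change was -0.05 (95% interval -0.21 to 0.12, adjusted p = 0.670 by limma). The ratio of CD24 to EPCAM was 0.0397 ± 0.00251 in shCtrl and 0.0989 ± 0.00270 in shS1#1 cells (SD, n = 3 each), without overlap (p = 0.1 by an exact permutation test, two-sided, the lowest p possible with 3 against 3). EPCAM (ENSG00000119888) lies on chromosome 2 from 47345158 to 47387601.

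Both epithelial splicing factors were well expressed. ESRP1 was at 41.5, 40.3 and 39.0 FPKM in shCtrl and 52.4, 58.0 and 53.0 FPKM in shS1#1 libraries, without overlap and with the highest value in shS1#1 replicate 2. Limma gave a log2 fold change of 0.43 with a standard error of 0.07 (adjusted p = 0.0115). The call was lost without shCtrl replicate 1, 2 or 3, with adjusted p of 0.0556, 0.0674 and 0.0652. Without shS1#1 replicate 2 the log2 fold change was 0.39 (adjusted p = 0.00181).

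ESRP2 values were 25.3, 24.5 and 26.6 FPKM in shCtrl and 32.4, 26.7 and 30.3 FPKM in shS1#1 libraries. The groups did not overlap, but shS1#1 replicate 2, at 26.7 FPKM, was next to the highest shCtrl library, at 26.6 FPKM. The log2 fold change was 0.22 (95% interval 0.01 to 0.44) and did not pass the adjusted threshold (adjusted p = 0.152 by limma). Without shS1#1 replicate 2 it was 0.30 and passed (adjusted p = 0.0112). The shS1#1 library with the lowest ESRP2 was the one with the highest ESRP1. The sum of both factors went from 65.7 ± 1.01 to 84.3 ± 0.860 FPKM (SD, n = 3 each), without overlap (p = 0.1, exact permutation test). Their ratio, ESRP1 over ESRP2, ran from 1.46 to 1.65 in shCtrl and from 1.62 to 2.17 in shS1#1 libraries and overlapped. ESRP2, on chromosome 16 from 68229111 to 68238102, shares 149 exonic bases (2.68% of its exons) with NFATC3 on the opposite strand. NFATC3 was at 3.46 ± 0.151 and 3.00 ± 0.576 FPKM (SD, n = 3 each). ESRP1 lies on chromosome 8 from 94641074 to 94707466.

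Of the EMT transcription factors, TWIST1 and SNAI1 passed the expression filter. TWIST1, a basic helix-loop-helix factor, was at 5.40, 4.96 and 6.08 FPKM in shCtrl and at 3.60, 2.37 and 3.16 FPKM in shS1#1 libraries, on 66 to 191 reads each. All shS1#1 values were below all shCtrl values, and replicate 2 was the lowest. Limma put the log2 fold change at -0.84 with a standard error of 0.17 (adjusted p = 0.0220). Only 3.75% of the genes tested had a lower one, and the change stayed inside the fold change threshold. TWIST1, on chromosome 7 from 19020991 to 19117672, shares 141 exonic bases with AC003986.2 on the opposite strand, which had at most 2 reads per library.

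SNAI1, the zinc finger factor known as Snail, was at 2.88, 3.42 and 3.30 FPKM in shCtrl and 2.27, 1.69 and 1.91 FPKM in shS1#1 libraries, on 39 to 96 reads each. Again the groups did not overlap and shS1#1 replicate 2 was the lowest. Limma put this log2 fold change at -0.69 with a standard error of 0.13 (adjusted p = 0.0214). No exon of another gene overlaps SNAI1, on chromosome 20 from 49982999 to 49988886. For TWIST1 and SNAI1 the call was lost without shCtrl replicate 1, 2 or 3 or shS1#1 replicate 3, with adjusted p from 0.0653 to 0.0933 for TWIST1 and 0.0577 to 0.0975 for SNAI1. Without shS1#1 replicate 2, the values were -0.68 for TWIST1 (adjusted p = 0.00768) and -0.59 for SNAI1 (adjusted p = 0.0160). The ratio of TWIST1 to SNAI1 was 1.72 ± 0.235 in shCtrl and 1.55 ± 0.131 in shS1#1 cells (SD, n = 3 each), with overlapping values.

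**Figure D2:**
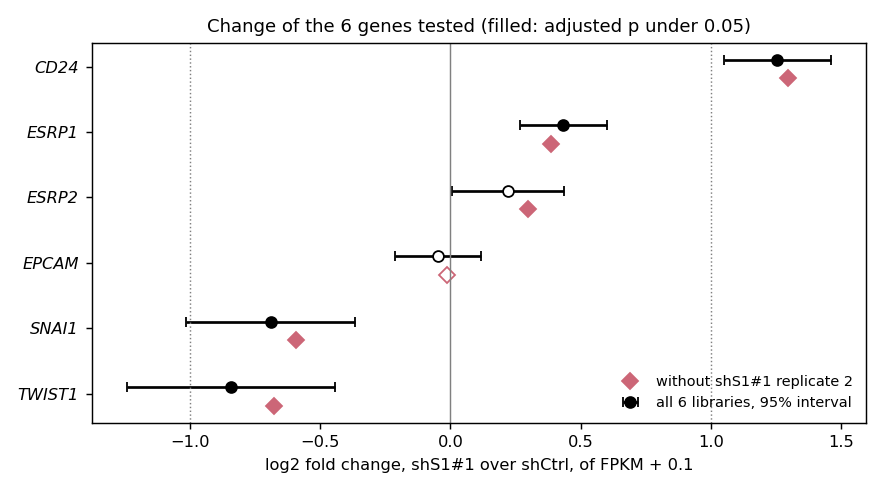
Log2 fold change of shS1#1 over shCtrl for the 6 genes tested (horizontal axis), with all 6 libraries (circles with 95% intervals) and without shS1#1 replicate 2 (diamonds). Filled symbols passed an adjusted p of 0.05. ESRP2 was called in the second fit but not the first, and EPCAM in neither.

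ZEB1, ZEB2, SNAI2 and VIM were all below 0.5 FPKM, ZEB1 and VIM with reads in every library and ZEB2 and SNAI2 with few or none. ZEB1, on chromosome 10 from 31318495 to 31529814, had 33 to 41 reads per library, or 0.241, 0.257 and 0.247 FPKM in shCtrl and 0.293, 0.346 and 0.300 FPKM in shS1#1. All shS1#1 values were higher (p = 0.1, exact permutation test), and the ratio of shS1#1 to shCtrl reads was 1.26 (95% interval 0.957 to 1.66, counting error only). The ZEB1 exons share 366 bases with ZEB1-AS1 on the opposite strand, at 1.27 ± 0.110 and 0.947 ± 0.322 FPKM (SD, n = 3 each), above ZEB1 itself, and reads of these shared bases cannot be assigned without strand.

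VIM, on chromosome 10 from 17228259 to 17237593, had 9, 13 and 18 reads in shCtrl and 15, 10 and 15 reads in shS1#1 libraries. The 40 reads in each group amount to 0.162 ± 0.0587 and 0.180 ± 0.0331 FPKM (SD, n = 3 each), a ratio of 1.12 (95% interval 0.703 to 1.78, counting error only). No difference in VIM was detectable at this depth. Its exons share 641 bases with VIM-AS1 on the opposite strand, which had at most 6 reads per library. ZEB2, on chromosome 2 from 144364364 to 144524583, had 1, 1 and 4 reads in shCtrl and 10, 6 and 3 reads in shS1#1 libraries. The sums of 6 and 19 reads gave a ratio of 3.54 (95% interval 1.36 to 10.8, counting error only). The libraries of the groups overlapped (p = 0.2, exact permutation test). SNAI2, known as Slug, on chromosome 8 from 48917604 to 48921740, had 0, 0 and 1 read in shCtrl and 1, 0 and 1 read in shS1#1 libraries, all at or below the 3 reads that a count of 0 allows. With no filter on level, limma gave an adjusted p of 0.646 for ZEB1, 0.882 for VIM, 0.592 for ZEB2 and 0.783 for SNAI2.

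In shCtrl cells the order of levels per length was EPCAM, ESRP1, ESRP2, CD24, TWIST1, SNAI1, ZEB1, VIM, and then SNAI2 and ZEB2. CD24 (5.60 to 6.63 FPKM) and TWIST1 (4.96 to 6.08 FPKM) overlapped in this order, as did SNAI2 and ZEB2. In shS1#1 cells CD24 lay above TWIST1 in all libraries, and the first 8 places were held by the same genes in the same order. From EPCAM to VIM the levels ran from 153 to 0.162 FPKM in shCtrl cells.

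Genes around these 10 were described with lists of well known members, without a set test. The lists were chosen with earlier results of these data known, so their counts are a description only. Over all genes tested, 1372 were called higher and 805 lower with all libraries. Without shS1#1 replicate 2 these were 2296 and 2078, and without 1 shCtrl library 651 to 674 and 166 to 185. List counts from those fits are to be read beside these. Of 35 epithelial adhesion and keratin genes, all passed the expression filter, 16 were called higher, 0 were called lower and 19 did not pass the test. Their median log2 fold change was 0.29, against -0.02 over all genes. They included CGN, which encodes the tight junction protein cingulin, from 14.8 ± 0.666 to 30.1 ± 0.977 FPKM, and KRT18, from 875 ± 10.5 to 2000 ± 159 FPKM (SD, n = 3 each). KRT8 and KRT18 have processed copies whose reads were not examined here, so the levels of both are uncertain. CDH1 rose from 55.1 ± 0.813 to 75.7 ± 9.41 FPKM (n = 3 each, SD), or by 0.45 on the log2 scale (adjusted p = 0.0311 by limma). This call was kept in 2 of 6 fits with a library left out. The call was also lost with no filter on level (adjusted p = 0.0607), no trend (0.0533) or replicate block (0.0787), all by limma. CLDN7, the claudin that associates with EPCAM, was at 55.2 ± 2.00 and 50.2 ± 11.8 FPKM (adjusted p = 0.563), with its lowest value, 37.3 FPKM, in shS1#1 replicate 2. The list had 19 called genes without that library, and 8 without any 1 of the shCtrl libraries or without shS1#1 replicate 3. Of 15 epithelial transcription factors, 13 were tested, 5 were called higher and 0 lower, with a median log2 fold change of 0.21. GRHL3, a grainyhead factor of barrier epithelia, rose from 5.94 ± 0.447 to 19.9 ± 0.605 FPKM (log2 fold change 1.73), and ELF5 from 0.920 ± 0.168 to 2.12 ± 0.0867 FPKM (SD, n = 3 each). GRHL2, which opposes ZEB1, was at 10.4 ± 0.257 and 11.3 ± 0.563 FPKM (adjusted p = 0.271). Without shS1#1 replicate 2 the list had 10 called genes, and without any 1 shCtrl library it had 3.

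Of 34 mesenchymal genes, 13 were tested, 0 were called higher and 2 lower by limma. These were TNC, a matrix glycoprotein (1.74 ± 0.168 to 0.379 ± 0.0693 FPKM; SD, n = 3 each), and CALD1, which binds actin (4.35 ± 0.0537 to 3.39 ± 0.272 FPKM), whose call was kept in 1 of 6 fits with a library left out. The median log2 fold change of the 13 was 0.08. FN1 (fibronectin) was at 4.34, 4.45 and 4.45 FPKM in shCtrl and 5.72, 9.29 and 6.11 FPKM in shS1#1 libraries, highest in replicate 2, with a log2 fold change of 0.63 (adjusted p = 0.0710 by limma), and passed the test without that library (0.41, adjusted p = 0.00529). CDH2 (N-cadherin) reached at most 0.0295 FPKM in any library. The number called was 7 without shS1#1 replicate 2 and 1 without any other 1 library. With voom on the recovered reads it was 5 and with protein-coding genes only 4. FN1 passed as higher in both (adjusted p = 0.0332 and 0.0409 by limma). With no filter on level, no trend or the replicate block the number was 1. Of 12 further EMT transcription factors, 7 were tested and 2 were called, both higher, with a median log2 fold change of -0.25. SOX4 rose from 11.2 ± 0.127 to 21.3 ± 2.53 FPKM and FOXC1 from 6.26 ± 0.329 to 8.83 ± 0.804 FPKM (SD, n = 3 each), opposite in direction to TWIST1 and SNAI1. FOXC1 kept its call in 2 of 6 fits with a library left out, SOX4 in 6.

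**Figure D3:**
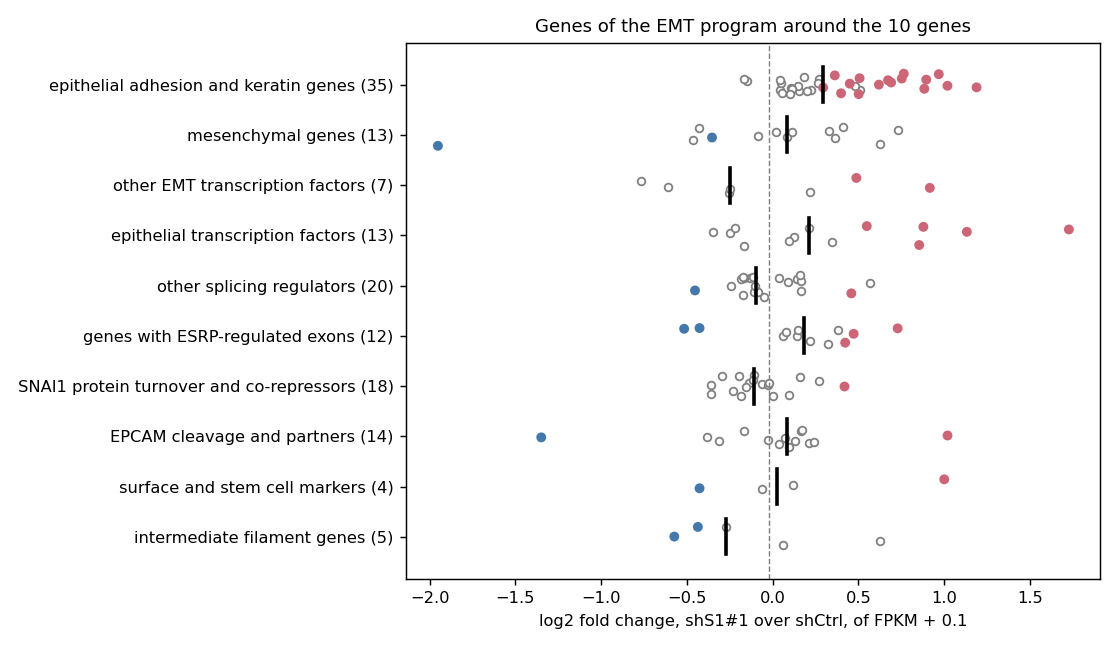
Log2 fold change of shS1#1 over shCtrl (horizontal axis) for the genes tested in each list of at least 4 tested genes. Filled points passed an adjusted p of 0.05 (red higher, blue lower), black bars are list medians and the dashed line is the median of all genes tested. Called epithelial adhesion genes and epithelial transcription factors all lie right of 0.

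Among 27 other regulators of splicing, 20 were tested, 1 was called higher and 1 lower, with a median log2 fold change of -0.10. RBM47, an epithelial splicing regulator, rose from 6.44 ± 0.214 to 8.94 ± 1.14 FPKM and HNRNPA1 fell from 229.5 ± 2.66 to 168 ± 15.2 FPKM (SD, n = 3 each). HNRNPA1 has many processed copies whose reads were not examined here, so its level is uncertain. Neither RBM47 nor HNRNPA1 was called without any 1 of the shCtrl libraries or without shS1#1 replicate 3. Both calls were also lost with no filter on level or the replicate block, and that of RBM47 with no trend. Without shS1#1 replicate 2, 7 genes of the list were called. Of 12 genes with exons known to respond to ESRP proteins, 3 were called higher and 2 lower, with a median log2 fold change of 0.18. They include ITGA6 (63.0 ± 0.703 to 106 ± 23.4 FPKM), SLK (20.7 ± 0.785 to 28.9 ± 4.08), CD44 (9.93 ± 0.376 to 7.38 ± 0.573) and ENAH (5.32 ± 0.185 to 3.71 ± 0.533; SD, n = 3 each). None of the 5 was called without any 1 of the shCtrl libraries, or without shS1#1 replicate 3, in the limma fits. Without shS1#1 replicate 1, 2 genes of the list were called. The list had 1 called gene with no filter on level, 3 with no trend and 0 with the replicate block. The table holds a single value per gene, so splice forms were not analysed here. CD44 and CD24, which are often read together as surface markers, moved in opposite directions. The ratio of their change was not tested.

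Among 14 tested genes of EPCAM cleavage and signalling, FHL2, a cofactor of the cleaved EPCAM tail, rose from 9.78 ± 0.260 to 20.1 ± 2.84 FPKM, and LEF1, a partner of beta-catenin, fell from 2.01 ± 0.0672 to 0.735 ± 0.143 FPKM (SD, n = 3 each). The other 12 did not pass the test, and the median log2 fold change was 0.08. Without shS1#1 replicate 2, 5 genes of the list were called. Of 18 tested genes of SNAI1 protein turnover and co-repression, FBXL5, a ubiquitin ligase subunit, was called higher (4.67 ± 0.199 to 6.27 ± 0.381 FPKM) and 17 did not pass, with a median of -0.11. FBXL5 kept its call in 2 of 6 fits with a library left out, and the list had 4 called genes without shS1#1 replicate 2. Of 9 surface and stem cell markers 4 were tested (median 0.03), and besides CD44 the aldehyde dehydrogenase ALDH1A1 was called, higher at 222.5 ± 33.7 than at 110.3 ± 1.52 FPKM (SD, n = 3 each). Of 13 further intermediate filament genes, 5 were tested and the lamins LMNB1 (54.1 ± 0.375 to 36.6 ± 5.07 FPKM) and LMNB2 (36.0 ± 2.07 to 26.6 ± 2.05 FPKM) were called lower (median -0.27). Neither lamin was called without any 1 shCtrl library.

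**Figure D4:**
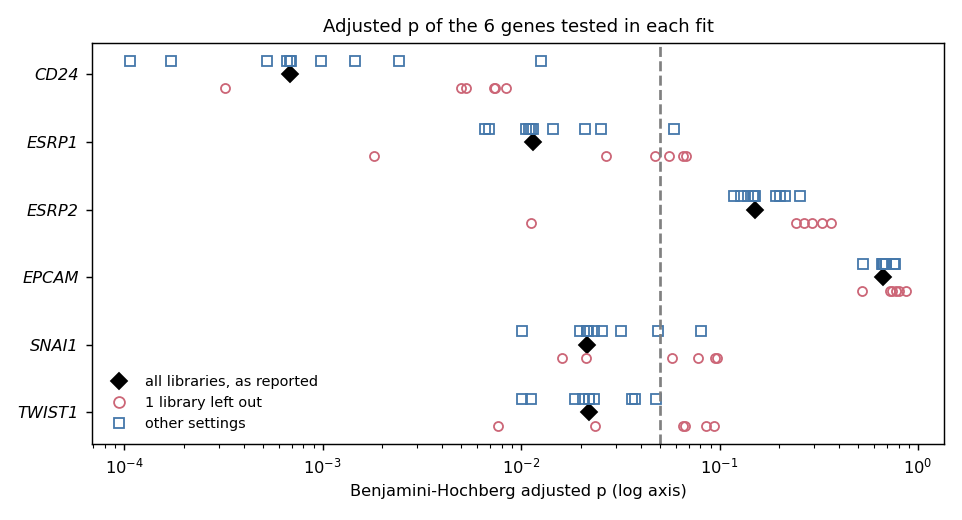
Adjusted p (horizontal log axis) of the 6 genes tested with all libraries (diamonds), with 1 library left out (circles) and in 10 other settings (squares, of which median-of-ratios scaling repeats the diamond); the dashed line marks 0.05. CD24 stays left of the line in all fits plotted, EPCAM right of it in all, and ESRP1, ESRP2, SNAI1 and TWIST1 lie on both sides.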

How the data were processed

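RNA of 3 shCtrl and 3 shS1#1 NCI-N87 samples was sequenced by Novogene. The submitters' processing notes name hg38, HISAT2 2.0.5, featureCounts 1.5.0-p3 and DESeq2 1.20.0, without settings or strand. The authors deposited FPKM per gene and library, and the coordinates of all 58735 genes equalled GENCODE 29. FPKM times gene length was a whole multiple of 1 step per library (within 0.1 read) for 100% of values above 0, which gave the reads. The steps followed from a size factor per library (0.914 to 1.11), by which the deposited values had been scaled. Expression was tested with limma 3.58.1 in R 4.3.3 on log2(FPKM + 0.1), with a mean-variance trend, over the 15556 genes averaging 0.5 FPKM or more, with Benjamini-Hochberg adjustment. Fold changes on this scale understate those of low genes. Permutation tests were exact, and intervals of read ratios are exact binomial (scipy 1.17.1). On data simulated for this comparison, 71.3% of genes changed by 1 and 19.6% of those changed by 0.5 on the log2 scale were recovered, among 15642 genes. The simulation gave all libraries the same spread beyond sampling noise, so none stood apart as shS1#1 replicate 2 did. It changed 100 genes by each amount, fewer than were called in the data. The shares recovered may therefore differ in the data.

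The 10 genes, the 13 gene lists and the tests were chosen with earlier results of these data known. Genes named are the 10, SCAMP1, CDH1, CLDN7, CDH2, FN1, CD44, RBM47 and GRHL2, and from each list up to 2 genes called higher with the highest and 2 called lower with the lowest log2 fold change, averaging 1 FPKM or more. KRT8, KRT19, COL1A2, PDGFRA, DCN, LUM, EMCN, COL1A1 and VWF are named as markers. Alternatives covered the pseudocount, filter, scaling, trend, biotype, voom on the recovered reads, the replicate number as a block, and leaving out each library.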

Additional observations from a re-analysis of the deposited data

How the results depend on the processing

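CLDN7, which was not called in any fit, was the only gene recomputed that changed sign, between -0.31 and 0.036 with 1 library left out, the latter without shS1#1 replicate 2. Median-of-ratios scaling repeated the reported values, since the deposited values were already scaled in this way. In the other 15 alternatives the log2 fold change of CD24 kept its call and that of EPCAM failed it. With 1 library left out, which leaves fewer samples, the range was -0.80 to -0.59 for SNAI1, -0.97 to -0.68 for TWIST1, 0.39 to 0.46 for ESRP1 and 0.16 to 0.30 for ESRP2. These fits called 1 to 5 of the 6 genes, 651 to 2296 higher and 166 to 2078 lower genes of all tested, and 16 to 66 of the 205 listed genes, with the high ends all without shS1#1 replicate 2; with all libraries these were 4, 1372, 805 and 39. No filter on level gave 514 lower genes and 24 listed genes. More genes entered both the adjustment and the mean-variance trend, and the part of each was not tested. Deviations of same-numbered libraries correlated between -0.0351 and 0.0668, and those of differently numbered libraries between -0.0841 and 0.0537. Not every library correlated best with its own number. With 3 libraries a group these values cannot decide whether the numbers pair the samples. With the replicate number as a block (replicate block), 2 of the 6 genes, 704 higher, 254 lower and 17 listed genes were called, and SNAI1 (-0.69, adjusted p = 0.0807) and ESRP1 (0.43, adjusted p = 0.0589) did not pass. The causes were not tested. Of 208 recounts of single lists, 142 stayed within 1.5 times. These include the fibroblast and endothelial lists, with 0 genes called in every fit, and median-of-ratios scaling. Such recounts could hardly move, so the tally does not measure stability. The scalings moved the median of all genes by -0.03 or less in size on the log2 scale. Depth limits ZEB1, ZEB2, SNAI2 and VIM.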
